A study of Mus musculus with 6 samples.

Results

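The 10 genes described here are T-box factors (Tbx2, Tbx3, Tbx4 and Tbx5) and forkhead factors (Foxf1, Foxc1, Foxc2, Foxp1, Foxp2 and Foxo1) that pattern the lung and its vessels. They were taken by name from the 31053 features of the count matrices, and all 10 were listed in each of the 6 libraries. Single cells were profiled from lungs of mice with DsRed knocked into Cxcl12, the gene of a chemokine made by arterial endothelial cells (ECs). The sorted libraries were made from embryos at E13.5, at E15.5 and at E18.5 and from pups at P8, all Cxcl12DsRed/+, with several lungs mixed at each age. Reporter-positive CD31+ ECs free of EpCAM and CD45 were taken, and reporter-positive CD31- cells enriched for mesenchyme were collected too. The remaining pair of libraries came from whole, unsorted E18.5 lungs, one labelled homozygous null (Cxcl12DsRed/DsRed) and the other heterozygous control (Cxcl12DsRed/+), so that every group carried at least 1 reporter allele. Each is called a lung here, although its library may hold more than 1.

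T-box and forkhead proteins bind DNA and switch transcription of their targets on or off. In the embryonic lung Tbx4 and Tbx5 maintain the mesenchymal signals that drive airway branching, Tbx2 and Tbx3 act there mostly as repressors, and Foxf1 serves both the mesenchyme and the capillary endothelium. Foxc1 and Foxc2 act together in arterial and lymphatic vessels, Foxp1 and Foxp2 are repressors best known from the airway epithelium, and Foxo1 is held in check by growth factor signalling and restrains endothelial growth.

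Each condition was a single library, so no test between conditions could be made and no p-value is given. A level is the sum of a gene's UMIs (counted molecules) over all cells of a population per 1000000 UMIs of that population (CPM), and the interval behind it, like that behind each ratio, is an exact interval at 95% that covers counting error only. ECs were cells with at least 2 UMIs of Pecam1 and Cdh5 together, and mesenchymal cells had at least 5 of Col1a1 and Col3a1. A cell that passed more than 1 class gate was left out. With the sorted libraries in order of age, then the lungs labelled null and control, these gates gave 166, 8775, 9013, 8220, 2610 and 1632 ECs, and 11253, 2058, 282, 68, 4467 and 3760 mesenchymal cells. The median depth of the cells kept was 5647 to 9042 UMIs per library. In ECs 8 of 8 further endothelial markers were above 1 CPM in every library, summing to 5281 to 12439.8 CPM, against 13.4 to 169 CPM for 8 mesenchymal markers, and at P8 the mesenchymal markers Dcn and Lum were at 0.

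Some libraries went against their labels or stood apart. Cxcl12 itself was at 572 CPM in ECs of the library labelled null and at 5.31 CPM in those of the library labelled control, the opposite of what the labels say, so directions between the whole lungs are given by label only. The whole lungs shared 140 cell barcodes (1.58% of the smaller library), against 20 to 54 for every other pair of libraries. Leaving these barcodes out moved none of the values recomputed for the whole lungs by more than their counting error. Doublet calls made with Scrublet were kept, and removing them is one of the alternatives given at the end. The E13.5 library held few ECs, and the mesenchymal markers in them summed to 5.30% of the level in mesenchymal cells of that library, against 0.110% to 0.444% in the other sorted ECs.

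Over the time course Foxf1, Tbx2, Tbx3 and Foxp1 were higher in ECs at P8 than at E15.5, Foxc1 was lower, and Tbx4 and Tbx5 were at most 4.23 CPM in ECs of any library. Tbx2 was the most abrupt of these. In sorted ECs, from E13.5 to P8 in order of age, it was at 5.07, 0.942, 89.7 and 87.4 CPM, beside 85.5 in the lung labelled null and 90.5 in the lung labelled control. The level at E18.5 was 95.2-fold that at E15.5 (76.5 to 120.1), while P8 and E18.5 differed by 1.03-fold (0.988 to 1.07). The 6 UMIs behind the E13.5 value give it an interval of 1.86 to 11.0 CPM.

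Tbx3, the relative of Tbx2, was at 27.9, 33.3, 169.7 and 199 CPM in ECs from E13.5 to P8, and at 209 and 208 CPM in the lungs labelled null and control. It was 5.10-fold higher at E18.5 than at E15.5 (4.89 to 5.31) and 1.17-fold higher at P8 than at E18.5 (1.14 to 1.20). The step between E15.5 and E18.5 was thus shared by both genes, and neither moved 2-fold between E18.5 and P8.

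Foxf1 climbed through both intervals. Its level in ECs was 71.9, 90.9, 311 and 876 CPM at the 4 ages, and 348 and 312 CPM in the lungs labelled null and control. E18.5 was 3.42-fold above E15.5 (3.33 to 3.52) and P8 was 2.82-fold above E18.5 (2.77 to 2.86). When ECs were thinned to 2000 UMIs, which left out 19, 141 and 197 shallower cells of the last 3 ages, a Foxf1 UMI was held by 14.9% of ECs at E15.5, by 42.3% of those at E18.5 and by 77.1% of the P8 cells (44.9%, 69.4% and 93.2% unthinned). Immune cells of the whole lungs, which should lack the gene, held one in 0.317% and 0.358% of thinned cells, at median depths of 14761 and 14661 UMIs against 5652 to 8425 in the sorted ECs of these ages.

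Foxp1 was at 205, 251, 351 and 542 CPM in ECs from E13.5 to P8, 2.16-fold higher at P8 than at E15.5 (2.12 to 2.19). Foxo1 was at 53.3, 54.2, 107 and 93.8 CPM and rose 1.98-fold from E15.5 to E18.5 (1.91 to 2.06), just under the 2-fold mark used for calls. Foxc1 went the other way, with 22.8, 10.8, 6.52 and 2.87 CPM, and was 3.77-fold lower at P8 than at E15.5 (3.20 to 4.45). Foxc2 was at 7.61, 5.59, 2.25 and 1.87 CPM and Foxp2 at 7.61, 1.49, 1.17 and 0.0983 CPM, both under the minimum of 10 CPM required for a call.

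A gene was called different when it reached 10 CPM in at least 1 of the populations compared and its log2(CPM + 0.5) differed by 1 or more. From E15.5 to E18.5, 6 members were above the minimum in ECs and 3 of them (Tbx2, Tbx3 and Foxf1) were called higher, where 13.9% of all genes were called in either direction. From E18.5 to P8 Foxf1 was the 1 member called of 5, against 8.32% of all genes. From E15.5 to P8 the call was made for 5 of 6, Tbx2, Tbx3, Foxf1 and Foxp1 higher and Foxc1 lower, against 20.8%. The median log2 difference of those 6 was 1.83, beside 0.18 over the 8518 genes above the minimum. ECs with a UMI of the cycling genes Mki67 or Top2a fell in share over the same ages (E15.5 32.4%, then 10.5% and 9.18%), and the 5 calls at P8 over E15.5 were also made without those cells.

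**Figure D1:**
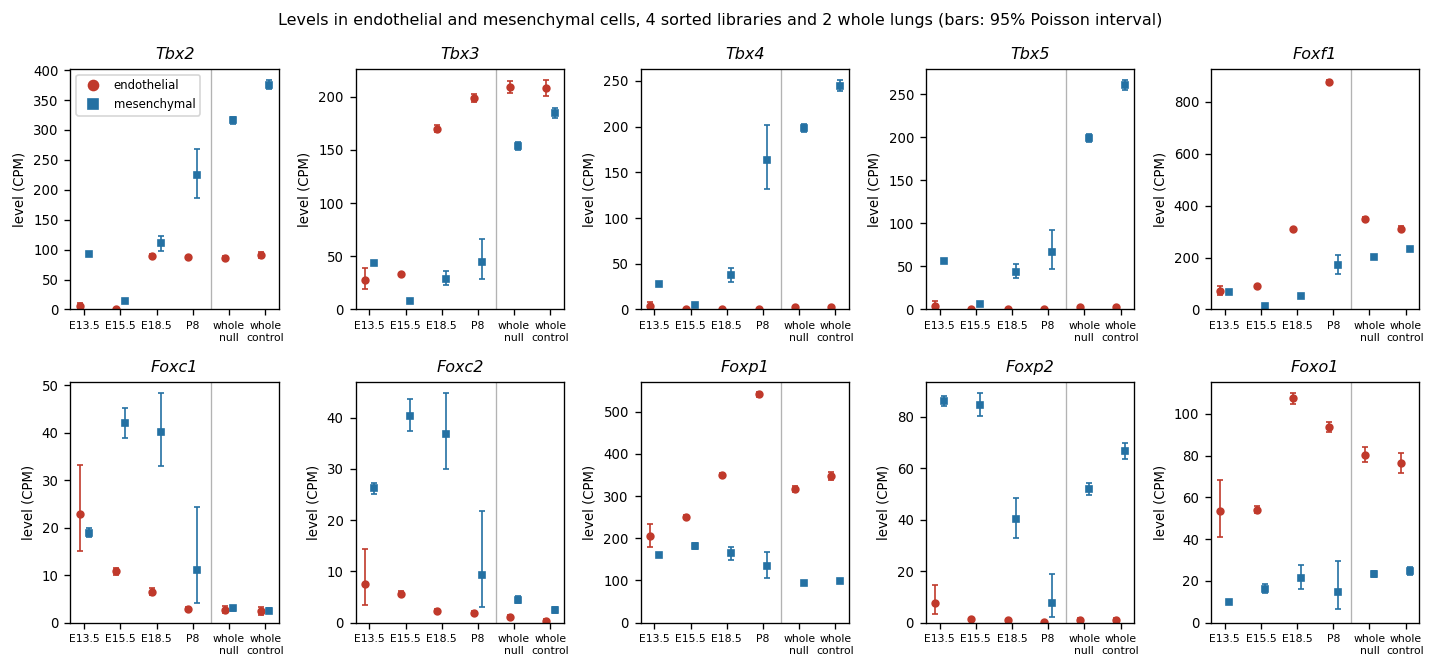
Level of each gene in CPM (vertical axes, each from 0) in endothelial (circles) and mesenchymal cells (squares) of the 4 sorted libraries and the 2 whole lungs, with 95% Poisson intervals. Between E15.5 and E18.5 endothelial Tbx2 goes from 0.942 to 89.7 CPM, and by P8 Foxf1 goes from 90.9 to 876 CPM, while in mesenchymal cells the T-box genes and Foxf1 dip at E15.5.

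The ECs were split by Gja4 (a connexin of arterial ECs), Gpihbp1 (the capillary anchor of lipoprotein lipase) and Car4 (a carbonic anhydrase of gas-exchange capillary ECs), each at 2 UMIs or more, and cells that passed exactly 1 of these gates were used. Tbx2 marked the Car4 gate. At P8 it was at 581 CPM in the 223 cells of the Car4 gate, 55.8 in the 932 of the Gpihbp1 gate and 9.46 in the 1512 of the Gja4 gate, and at E18.5 it was at 637, 94.0 and 13.1 CPM in the same order. The Car4 gate was 10.4-fold above the Gpihbp1 gate at P8 (9.05 to 12), and the Gja4 gate was 5.90-fold below it (4.59 to 7.65). In the whole lungs, where too few cells passed only the Car4 gate, Tbx2 was at 82.0 and 103 CPM in the Gpihbp1 gate and 13.1 and 12.2 CPM in the Gja4 gate, labelled null first. At E15.5 no such order was seen, with 0.949 CPM in the Gpihbp1 gate and 0.881 in the Gja4 gate.

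Tbx3 followed the same order of gates at P8 with a smaller range, 507 CPM in the Car4 gate, 176 in the Gpihbp1 gate and 101 in the Gja4 gate. Foxf1 did too, at 1259, 1010.5 and 502 CPM, and it rose from E18.5 to P8 inside each gate, by 1.69-fold (1.56 to 1.83) in the Car4 gate, 2.61-fold (2.50 to 2.72) in the Gpihbp1 gate and 2.72-fold (2.61 to 2.84) in the Gja4 gate. Between E15.5 and P8 Foxf1 rose 7.24-fold (6.92 to 7.59) within the Gja4 gate and 8.67-fold (8.18 to 9.20) within the Gpihbp1 gate. The Gja4 gate kept the arterial genes Gja5 and Hey1 at P8, at 136 and 382 CPM against 10.3 and 163 in the Gpihbp1 gate. Other EC marker genes moved both ways in the Gja4 gate from E15.5 to P8. Ednrb went from 26.2 to 417 CPM, Lyve1 from 8.42 to 478, Plvap from 291 to 775 and Aplnr from 16.6 to 39.4. Kdr went from 280 to 123, Apln from 10.6 to 2.57, Mmrn1 from 12.6 to 0 and Flt4 from 12.5 to 11.1. Ednrb, Lyve1 and Plvap were at 32.8, 454 and 706 CPM in the Gpihbp1 gate at P8, below the Gja4 gate. What part the makeup of the gate had in the Foxf1 rise was not tested.

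Foxo1 and Foxp1 had the reverse order at P8. Foxo1 was at 171 CPM in the Gja4 gate, 64.6 in the Gpihbp1 gate and 20.3 in the Car4 gate at P8, and at 166, 50.2 and 35.0 CPM at E18.5. Foxp1 was at 625, 472 and 146 CPM at P8 in that order of gates. From E18.5 to P8 Foxp1 rose 1.52-fold in the Gja4 gate (1.47 to 1.57) and 1.69-fold in the Gpihbp1 gate (1.60 to 1.78), and fell 1.57-fold in the Car4 gate (1.30 to 1.90). Among the 3 gates Foxc1 was found mainly in the Gja4 gate, at 15.5 CPM (133 UMIs) against 0.410 CPM (2 UMIs) in the Gpihbp1 gate and 0.810 CPM (1 UMI) in the Car4 gate at P8, and it was at 10.4 CPM in the 364 ECs that passed none of them. The ratio of the Gja4 to the Gpihbp1 gate was 37.9, with an interval of 10.3 to 316 from so few UMIs.

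Within the Gja4 gate Foxc1 hardly moved over time, at 15.6, 13.6 and then 15.5 CPM from E15.5 onwards (P8 1.01-fold below E15.5, 0.836 to 1.22). The fall of Foxc1 over all ECs went with a fall in the share of ECs that passed only the Gja4 gate. That share was 59.4%, 41.0% and 18.4% at these ages. Cells that passed only the Gja4 and Gpihbp1 gates were 16.1%, 21.2% and 44.2% of ECs, with Foxc1 at 2.52, 1.84 and 0.540 CPM. The part of these shares in the fall was not tested. Foxc2 in the Gja4 gate alone was at 8.75, 4.20 and 8.53 CPM. Foxo1, by contrast, rose 2.43-fold within the Gja4 gate from E15.5 to E18.5 (2.32 to 2.55) and 1.65-fold within the Gpihbp1 gate (1.45 to 1.89).

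The gates overlapped increasingly with age. ECs that passed more than 1 of the 3 gates were 16.2% of all ECs at E15.5 but 27.6% by E18.5 and 63.1% by P8, when the cells that passed all 3 had a median of 12850 UMIs against 4896 in the Gpihbp1 gate alone. Tbx2 at P8 took intermediate levels in such cells, 26.9 CPM in those positive for Gja4 and Gpihbp1, 268 CPM for Gpihbp1 and Car4, and 162 CPM for all 3.

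Between the Gja4 and Gpihbp1 gates at P8, 4 of 6 members were called (Foxc1 and Foxo1 higher, Tbx2 and Foxf1 lower in the Gja4 gate), against 10.6% of all genes. That count depends on the gate. It was 1, Tbx2, when gates were read on cells thinned to 2000 UMIs, and 0 when every EC passing a gate was used whatever else it passed, an alternative chosen after seeing the data in which many cells stand on both sides, and all genes were then called at 3.80% and 0.597%. Foxc1 kept a log2 ratio of 3.15 and 1.75 in these alternatives and lost its call through the minimum of 10 CPM. The log2 ratio of Tbx2 was -1.25 and -0.35 in them, that of Foxf1 -0.50 and -0.14 and that of Foxo1 0.91 and 0.30. Between the Car4 and Gpihbp1 gates at P8, 4 of 5 were called (Tbx2 and Tbx3 higher, Foxp1 and Foxo1 lower), against 13.4%. Over the alternatives the log2 ratio of Tbx2 between these gates ran from 1.23 to 3.42, whereas those of Tbx3, Foxp1 and Foxo1 came as near to 0 as 0.48, -0.24 and -0.52.

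Among single ECs thinned to 2000 UMIs at E18.5, Foxf1 was found in 68.0% of cells with a Tbx2 UMI and in 38.7% of those without, and Tbx3 in 49.7% and 22.9%. Foxo1 was found in 8.62% of cells with Tbx2 and 19.5% of those without, the reverse order. These shares describe cells of 1 library. At P8 the Foxf1 shares were 84.8% and 76.2%, and the Foxo1 shares 10.8% and 18.3%.

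**Figure D2:**
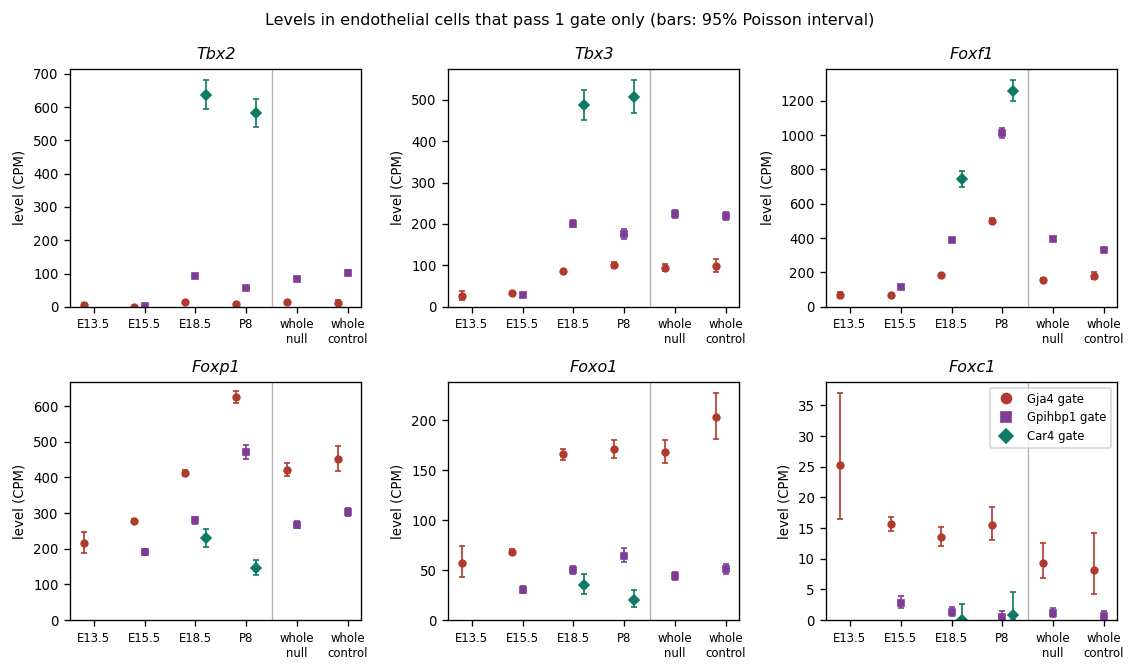
Level in CPM (vertical axes, each from 0) of 6 genes in ECs that passed only the Gja4, Gpihbp1 or Car4 gate, by library, with 95% Poisson intervals; a gate is drawn where at least 50 cells passed. At P8 Tbx2 is at 581 CPM in the Car4 gate and 9.46 in the Gja4 gate, while Foxo1 is at 20.3 and 171 CPM.

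Of the 10 genes, 4 have a start site in the RefSeq promoter table for GRCm38.p6, among them Foxo1 and Foxc1, the members called higher in the Gja4 gate at P8. Their 250 bases before the start are shown because of that call, which was lost for both in some alternatives. Capitals mark short cores on either strand: TGTTT (forkhead), GTGTG (T-box) and GGAAG (ETS, the family of endothelial activators). Foxo1 lies at chr3:52268087-52268336 and Foxc1 at chr13:31806396-31806645, both on the plus strand.
Foxo1: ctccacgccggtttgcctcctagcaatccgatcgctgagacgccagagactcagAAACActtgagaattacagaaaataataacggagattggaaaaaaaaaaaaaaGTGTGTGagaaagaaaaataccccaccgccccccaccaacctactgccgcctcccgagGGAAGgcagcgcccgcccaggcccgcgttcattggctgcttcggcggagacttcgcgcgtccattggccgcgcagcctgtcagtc
Foxc1: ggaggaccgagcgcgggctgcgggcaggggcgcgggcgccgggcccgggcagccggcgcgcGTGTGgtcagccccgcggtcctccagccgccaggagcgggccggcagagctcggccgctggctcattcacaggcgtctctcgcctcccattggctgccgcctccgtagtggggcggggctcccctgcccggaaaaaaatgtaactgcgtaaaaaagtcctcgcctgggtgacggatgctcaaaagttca
Counted back from the start, the Foxo1 window holds a forkhead core at -196, T-box cores overlapping at -143 and -141, and an ETS core at -85, and the Foxc1 window a T-box core at -189. These cores are common, in 46.4%, 42.3% and 64.1% of the 32851 promoters of that length. Neither window holds the longer forms searched on both strands, which were TGTTTAC for forkhead factors (3.17% of promoters), TCACACC for T-box factors (3.33%), CGGAAGT for ETS factors (4.92%) and GTGGGAA for the Notch partner RBPJ (5.42%). The RBPJ core TGGGAA (21.6%) was absent too. Each core is also part of the longer form for its family. GC content was 56.0% for Foxo1 and 70.8% for Foxc1, beside a median of 52.4%.

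In mesenchymal cells Tbx2, Tbx3, Tbx4, Tbx5 and Foxf1 shared a low level at E15.5 and a higher level in the unsorted than in the sorted E18.5 library. Tbx4, an activator of lung mesenchymal growth signals, was at 28.2, 4.62, 37.5 and 164 CPM in the sorted libraries in order of age, 199 in the lung labelled null and 245 in the lung labelled control. Tbx5, its partner there, was at 56.0, 6.87, 43.7, 66.9, 199 and 260.2 CPM in the same order. Both were lowest at E15.5 and highest in the unsorted lungs. The P8 values rest on 68 cells.

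Tbx2 was at 93.4, 14.4, 110.2, 225, 316 and 376 CPM in mesenchymal cells, Tbx3 at 43.7, 7.99, 28.7, 44.6, 154 and 185, and Foxf1 at 68.1, 13, 51.8, 171, 202 and 232. From E13.5 to E15.5 the sorted mesenchymal level dropped 6.47-fold for Tbx2 (5.69 to 7.37), 5.47-fold for Tbx3 (4.6 to 6.54), 6.11-fold for Tbx4 (4.88 to 7.76), 8.15-fold for Tbx5 (6.78 to 9.89) and 5.23-fold for Foxf1 (4.57 to 6.01). At E18.5 all 5 were lower in the sorted than in the unsorted mesenchymal cells, for example Tbx4 at 37.5 CPM against 199 and 245. Sorting on the reporter and the library cannot be told apart in that comparison.

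Foxc1 and Foxc2 had another pattern. Foxc1 was at 18.9, 42.0, 40.1, 11.2, 3.01 and 2.49 CPM in mesenchymal cells and Foxc2 at 26.2, 40.4, 36.7, 9.30, 4.46 and 2.46, so both were highest at E15.5 and lowest in the unsorted lungs. Foxc1 rose 2.22-fold from E13.5 to E15.5 (2.03 to 2.42). Foxp1 was at 159.8 and 182 CPM and Foxp2 at 86.0 and 84.5 CPM at these ages, a 1.02-fold difference for Foxp2 (0.962 to 1.08). In all, 6 of 10 members were called between E13.5 and E15.5, 5 lower and 1 (Foxc1) higher, against 11.2% of all genes. Foxc1 missed the 2-fold mark under some alternatives, with log2 ratios from 0.72 to 1.17.

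The makeup of the sorted mesenchyme changed between those ages. Gates of 3 UMIs over 3 marker genes placed 22.9% of mesenchymal cells at E13.5 and 2.67% at E15.5 in the alveolar fibroblast gate (Tcf21, Wnt2 and Gyg), 8.99% and 28.2% in the adventitial fibroblast gate (Col14a1, Serpinf1 and Dpt) and 5.99% and 15.1% in the smooth muscle gate (Myh11, Actg2 and Cnn1). Ratios within these gates were computed after the values over all mesenchymal cells had been seen. Within the alveolar fibroblast gate, with 2575 and 55 cells, the drop was not seen: Tbx2 was at 135 and 148 CPM, Tbx3 at 52.8 and 51.8, Tbx4 at 44.9 and 68.3, Tbx5 at 81.1 and 82.4, and Foxf1 at 62.8 and 73.0. The interval of the Tbx2 ratio was 0.845 to 1.41 and that of Tbx5 0.706 to 1.42. One gene of this gate, Wnt2, is a known target of Tbx4 and Tbx5. The part of that choice of gate gene in these levels was not tested.

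In the adventitial gate, with 1012 and 580 cells, Tbx2 dropped from 23.1 to 6.58 CPM (3.51-fold, 2.39 to 5.33) and Tbx5 from 15.6 to 1.06 CPM (14.7-fold, 6.14 to 46.2), while Foxf1 was at 8.68 and 7.85 CPM. In the smooth muscle gate, with 674 and 310 cells, Foxf1 dropped from 129 to 6.01 CPM (21.5-fold, 13.2 to 37.9), Tbx2 from 90.1 to 12.4 CPM, Tbx5 from 53.5 to 4.88 CPM, Tbx3 from 41.8 to 6.76 CPM and Tbx4 from 28.9 to 1.5 CPM. Foxc1 was there at 33.0 and 62.7 CPM, under 2-fold apart. Counted as calls, the alveolar fibroblast gate had 3 of 8 members past 2-fold, all lower (Foxc2, Foxp1 and Foxp2), against 13.9% of all genes, and the adventitial gate 3 of 8, all lower (Tbx2, Tbx3 and Tbx5), against 11.0%. Tbx4 in the adventitial gate, at 4.27 and 0.636 CPM, was under the minimum. In the smooth muscle gate 6 of 10 were called, the 4 T-box genes and Foxf1 lower and Foxo1 higher (8.54 to 17.6 CPM), against 14.3%. The drop was thus called for 3 T-box genes in the adventitial gate, for all 4 and Foxf1 in the smooth muscle gate, and for none of these 5 in the alveolar fibroblast gate. How much of the drop over all mesenchymal cells follows the change in makeup was not tested.

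**Figure D3:**
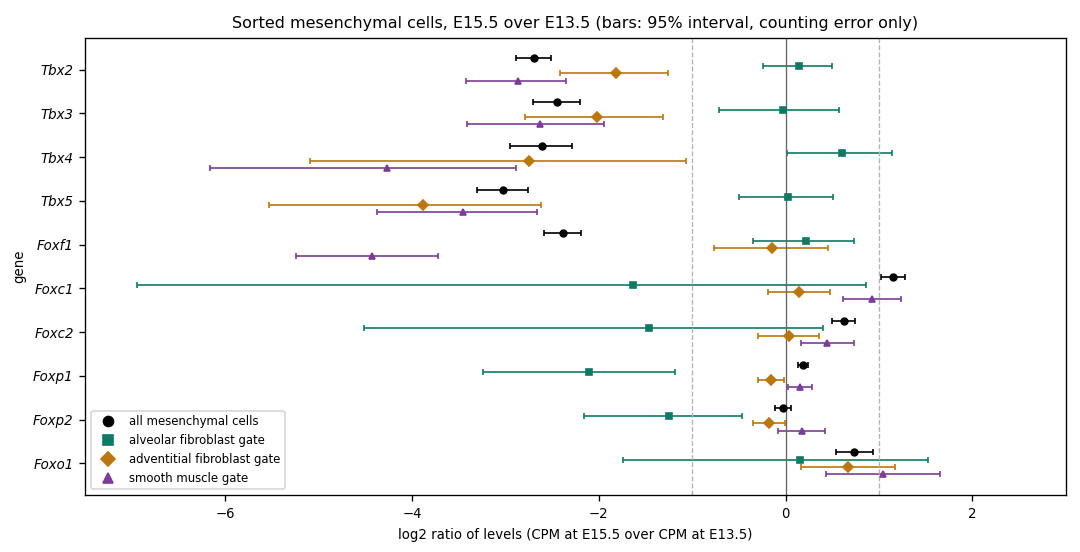
Log2 ratio of the level at E15.5 over that at E13.5 (horizontal axis) for each gene in all sorted mesenchymal cells and in 3 gates within them, with 95% intervals for counting error; dashed lines mark 2-fold. Tbx2 to Tbx5 and Foxf1 lie left of -2 in all mesenchymal cells, while in the alveolar fibroblast gate Tbx2, Tbx3, Tbx5 and Foxf1 lie between -0.03 and 0.21 and Tbx4 at 0.60.

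Set against all mesenchymal cells of the same library, some members were higher in ECs and others lower. At E15.5 Foxf1 was 6.98-fold higher in ECs (6.10 to 8.01), Tbx3 4.17-fold (3.51 to 4.99) and Foxo1 3.33-fold (2.95 to 3.77), whereas Foxp2 was 56.7-fold lower (47.3 to 68.5), Tbx2 15.3-fold (11.9 to 20.0), Foxc2 7.22-fold (6.41 to 8.13) and Foxc1 3.89-fold (3.52 to 4.29). That is 7 of 8 members called, where 25.6% of all genes were. In the whole lung labelled null 6 of 8 were called, Foxp1 and Foxo1 higher and Tbx2, Tbx4, Tbx5 and Foxp2 lower in ECs, against 30.4%. Tbx3 was there 1.36-fold (1.31 to 1.41) and Foxf1 1.72-fold (1.67 to 1.77) above mesenchymal cells, smaller ratios than in the sorted libraries of E15.5, E18.5 and P8, where both were 4.17-fold or more. In the alveolar fibroblast gate at E15.5, 2.67% of mesenchymal cells, Tbx3 was above its level in ECs and Foxf1 below. In the myofibroblast gate of both whole lungs, described below, Tbx3 and Foxf1 were above ECs. Sorted ECs of the Car4 gate held Tbx2 at 578% (E18.5) and 258% (P8) of its mesenchymal level. The part of cell makeup in these ratios was not tested. At E13.5, with 166 ECs and the mesenchymal markers given above, Tbx3 was 1.57-fold lower in ECs (1.11 to 2.28), and Foxf1 and Foxc1 were at 1.06-fold (0.842 to 1.31) and 1.21-fold (0.793 to 1.76) of the mesenchymal level.

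In the other classes of the whole lungs Tbx4 and Tbx5 stood at 0.382% to 1.42% of their mesenchymal level. Tbx4 in ECs was 1.42% of its mesenchymal level in the lung labelled null (1.12 to 1.79) and 1.23% in the lung labelled control (0.887 to 1.67), and Tbx5 1.31% and 1.27%, beside 1.04% and 0.882% for the summed mesenchymal markers. In immune cells, which should lack both, Tbx4 was at 1.39% and 1.06% and Tbx5 at 0.980% and 0.862%. In epithelial cells Tbx4 was at 0.573% and 0.604% and Tbx5 at 0.382% and 0.690%, and for both genes the intervals of epithelial cells and ECs overlapped in the lung labelled control and did not in the lung labelled null. In sorted ECs Tbx4 was at 4.03%, 2.24% and 0.350% of its mesenchymal level at E15.5, E18.5 and P8. The summed mesenchymal markers were at 0.444%, 0.194% and 0.110% there. In sorted ECs at P8 Tbx4 was at 0.573 CPM, 286-fold below the 68 mesenchymal cells (191 to 435).

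Among the classes of the whole lungs Tbx2, Tbx4 and Tbx5 were highest in mesenchymal cells in both, as were 23.1% of all genes. Within the mesenchyme the T-box genes and Foxf1 were high in the myofibroblast gate (Pdgfra, Hhip and Fgf18), with 564 cells in the lung labelled null and 1000 in the lung labelled control. There Tbx2 was at 440.5 and 452 CPM, Tbx3 at 389 and 353, Tbx4 at 383 and 391, Tbx5 at 465 and 448, and Foxf1 at 497 and 445. In the alveolar fibroblast gate, with 232 and 194 cells, Tbx2 was still at 305 and 341 CPM, but Foxf1 was at 35.0 and 34.7 and Tbx3 at 42.7 and 46.1. The ratio of the myofibroblast to the alveolar fibroblast gate was 14.2 and 12.8 for Foxf1, 9.10 and 7.66 for Tbx3, 6.16 and 3.83 for Tbx5, 2.71 and 2.69 for Tbx4, and 1.44 and 1.33 for Tbx2. Of these 5 genes Tbx2 differed least between the gates in both lungs, and Foxf1 most. The 8 endothelial markers moved with this contrast, summing to 522 and 507 CPM in the myofibroblast gate and to 96.8 and 94.5 in the alveolar fibroblast gate, and their part in the ratios of Foxf1 and Tbx3 was not tested. The 8 mesenchymal markers summed to 3870 and 3230 CPM against 15034 and 16894.

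Foxp2 was highest in the epithelium and Foxp1 in ECs, in both lungs. Foxp2 was at 86.7 and 119 CPM in epithelial cells (405 and 567 cells), at 151 and 265 CPM in the AT1 gate (Ager, Rtkn2 and Hopx, 75 and 148 cells), at 51.8 and 66.6 CPM in mesenchymal cells and at 1.12 and 1.08 CPM in ECs. Foxp1 was found in every class, at 318 and 347 CPM in ECs, 188 and 243 in epithelial cells, 93.2 and 98.2 in mesenchymal cells and 63.4 and 78.4 in immune cells. Foxo1 was at 80.4 and 76.4 CPM in ECs, 23.1 and 24.6 in mesenchymal cells, 13.3 and 15.2 in epithelial cells and 14.0 and 11.7 in immune cells. The last 300 bases of Foxp1 transcripts share 271 of 3992 stretches of 60 bases with the annotated genes Gm20696 and Gm49348, so part of its counts is uncertain, while 8 members share none.

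**Figure D4:**
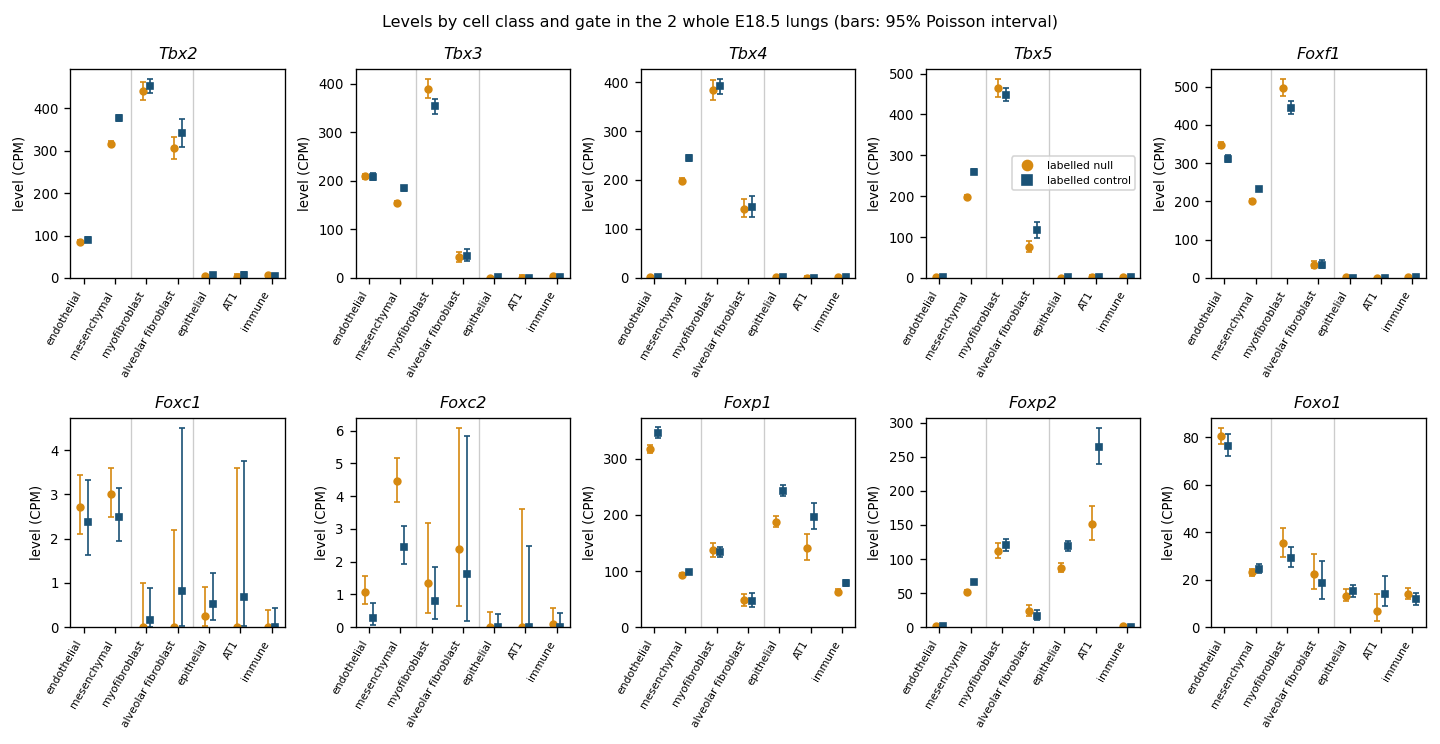
Level in CPM (vertical axes, each from 0) of each gene by cell class and gate in the whole E18.5 lungs labelled null (circles) and labelled control (squares), with 95% Poisson intervals. Tbx4 and Tbx5 are at 383 to 465 CPM in the myofibroblast gate and at most 3.30 CPM in ECs, and Foxp2 is highest in the AT1 gate.

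Between the libraries labelled null and control, 0 of 5 members above the minimum were called in ECs, where 0.53% of all genes were, and 0 of 8 in mesenchymal cells, where 1.06% were. With the authors' SoupX-adjusted values, on which the gates were read again, 1 member, Tbx5, was called in ECs, where 6.27% of all genes were. On the raw counts Tbx5 was under the minimum of 10 CPM in ECs of both lungs. With 1 library of each label no count comes with a p-value. In ECs Tbx3 was at 209 and 208 CPM, a ratio of 1.01 (0.961 to 1.05), and Foxf1 at 348 and 312 CPM, a ratio of 1.12 (1.08 to 1.16). With the adjusted values and gates the log2 ratio in ECs turned its direction for Foxf1 (0.16 to -0.09) and Tbx2 (-0.08 to 0.96). It also turned for Tbx3 (0.01 to -0.31) and Foxo1 (0.07 to -0.31), and that of Foxp1 went from -0.13 to -0.46. Changed values and changed gating cannot be told apart here. In all mesenchymal cells the T-box genes were lower in the lung labelled null, by 1.19-fold for Tbx2 (1.16 to 1.22), 1.20-fold for Tbx3 (1.16 to 1.25), 1.23-fold for Tbx4 (1.19 to 1.27) and 1.31-fold for Tbx5 (1.27 to 1.35). The myofibroblast gate, where these genes are high, held 12.6% of mesenchymal cells in the lung labelled null and 26.6% in the lung labelled control. Within that gate the ratios of these 4 genes were nearer to 1, with Tbx2 1.03-fold (0.966 to 1.09) and Tbx4 1.02-fold lower (0.956 to 1.09) and Tbx3 1.10-fold (1.03 to 1.18) and Tbx5 1.04-fold higher (0.976 to 1.10). In the alveolar fibroblast gate Tbx5 was at 75.4 and 117 CPM, 1.55-fold lower in the lung labelled null (1.22 to 1.99) and so further from 1 than over all mesenchymal cells, while Tbx2 was 1.12-fold lower (0.980 to 1.27), Tbx3 1.08-fold (0.747 to 1.55) and Tbx4 1.03-fold (0.843 to 1.25). The part of the gate shares in the lower levels over all mesenchymal cells was not tested.

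**Figure D5:**
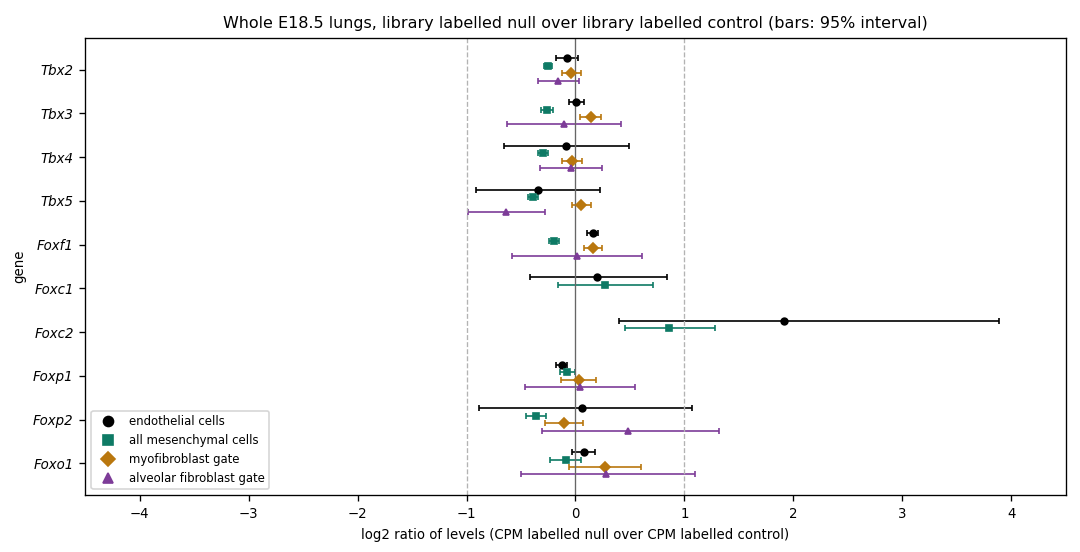
Log2 ratio of the level in the library labelled null over that labelled control (horizontal axis) for each gene in ECs, all mesenchymal cells and 2 mesenchymal gates, with 95% intervals for counting error; dashed lines mark 2-fold. The T-box genes lie between -0.39 and -0.25 in all mesenchymal cells and near 0 in the myofibroblast gate. In the alveolar fibroblast gate Tbx5 lies further left than in all mesenchymal cells.

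Lymphatic ECs at E18.5 were picked by Prox1, Mmrn1 and Reln together. Against all ECs, 6 of 8 members were called in them, 3 higher and 3 lower, where 1895 of 8992 genes were called. In these 109 cells Flt4, a lymphatic receptor that the gate did not use, was at 517 CPM against 39.3 in all ECs. Lyve1 was at 1578 CPM, but also at 668 in the Gpihbp1 gate. Foxc2 was at 46.9 CPM in the lymphatic gate against 2.25 in all ECs (20.9-fold, 14.8 to 29.0) and Foxp2 at 41.4 against 1.17 (35.5-fold, 23.8 to 52.4). Foxf1 was at 17.5 CPM against 311, 17.8-fold lower (11.4 to 29.6), Tbx3 at 16.6 against 169.7 and Tbx2 at 10.1 against 89.7. All ECs include the 109 lymphatic cells, so each of these ratios is nearer to 1 than against the remaining ECs. Their intervals treat the counts as separate and are not exact here. The 8 mesenchymal markers summed to 119.6 CPM in the lymphatic gate against 20.0 in all ECs, and their part in the Foxc2 and Foxp2 values was not tested. Foxc2 is known for its part in lymphatic valves. The same gate at E15.5 took 233 cells with Flt4 at 46.4 CPM, and these are not named.

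Several members are genomic neighbours (GRCm38). Tbx2 (chr11:85832551-85841948) and Tbx4 (chr11:85886422-85916097) are 44.47 kb apart, and Tbx3 (chr5:119670669-119684724) and Tbx5 (chr5:119832668-119885219) 147.9 kb, all on the plus strand. The neighbours differed in their level in ECs: Tbx2 was at 85.5 and 90.5 CPM in ECs of the whole lungs where Tbx4 was at 2.83 and 3.02, and Tbx3 at 209 and 208 where Tbx5 was at 2.60 and 3.30. Foxf1 (chr8:121084386-121088144) and Foxc2 (chr8:121116171-121118895) are 28.03 kb apart, and Foxf1 rose in ECs from E15.5 to P8 while Foxc2 went from 5.59 to 1.87 CPM. These Foxc2 levels are under the minimum of 10 CPM, and in the Gja4 gate alone Foxc2 was at 8.75 and 8.53 CPM at these ages. The antisense gene Tbx3os1 overlaps Tbx3 by 697 bases at the starts of both genes, while the libraries hold 3′ tags. Reads from that stretch are told apart only as far as the counting used strand.

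Of other genes named Tbx or Fox, 18 of 48 reached 20 CPM in a broad class. Foxf2, the mesenchymal relative of Foxf1, was at 60.6 and 69.8 CPM in mesenchymal cells of the lungs labelled null and control and at 0.853 and 1.58 CPM in ECs, and Foxq1, beside Foxf2 and Foxc1 on chromosome 13, at 72.3 and 86.9 and at 0.659 and 1.08 CPM. In sorted mesenchyme Tbx18 was at 8.73 CPM at E13.5 and 36.3 at E15.5, Tbx20 at 1.17 and 22.9, and Foxd1 at 28.1 and 33.5, against at most 2.50 CPM in unsorted mesenchymal cells for all 3. Foxa1, Foxa2, Foxj1, Foxp4 and Tbx1 were highest in the epithelium.

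A list of 23 known targets and partners gave the surroundings. From E15.5 to P8 in ECs 8 of 14 above the minimum were called, against 20.8% of all genes. Cdkn1a, a cell cycle inhibitor, went from 8.54 to 249.8 CPM, S1pr1, a barrier receptor linked to Foxf1, from 125 to 373, Dll4, the arterial Notch ligand, from 64.7 to 203, and Tek, Cited2 and Cxcr4 were also higher. Hey2, an arterial Notch effector, went from 14.7 to 4.04 CPM and Cdkn1c from 559 to 158. Both were higher in the Gja4 than in the Gpihbp1 gate at P8, and the part of the gate shares in these falls was not tested. The median log2 difference of the 14 was 0.73, beside 0.18 over all genes above the minimum.

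In mesenchymal cells from E13.5 to E15.5 the hedgehog targets Gli1 (16.1 to 6.63 CPM) and Ptch1 (69.6 to 29.9) and the Foxp partner Foxp4 (52.2 to 21.4) were called lower and S1pr1 higher, 4 of 15 in all (11.2% of all genes), while Fgf10 (12.3 and 13 CPM) and Wnt2 (24.6 and 19.8 CPM), known targets of Tbx4 and Tbx5, were not called. At P8 the Gja4 gate had Hey2 at 13.1 against 1.44 CPM in the Gpihbp1 gate, Cdkn1c at 555 against 55.6 and Kdr, a VEGF receptor, at 123 against 436, 4 of 14 called with Bmp4 against 10.6% of all genes. The Car4 gate had Kdr at 1704 CPM and Tek at 30.0 against 172 in the Gpihbp1 gate, 5 of 12 called against 13.4%. Between the labelled whole lungs 0 of 13 were called in ECs, against 0.53%. In the Gja4 gate, with 562 and 189 cells, 2 of 15 were called, against 1.71%. These were Bmp4 (49.6 and 20.4 CPM, labelled null first) and Foxp4 (11.4 and 4.76). In the alveolar fibroblast gate, with 232 and 194 cells, 1 of 14 was called, S1pr1 (5.94 and 14.5), against 4.76%. The lower values rest on few UMIs.

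The genes most like each member were ranked by Pearson's r of log2(CPM + 1) over 29 populations, among 10278 genes. These populations share libraries and cells, so r is a description only. Tbx5 was closest to Gm43050 (0.98), a noncoding gene on the opposite strand 747 bases away, and Tbx4 to the same gene (0.97) and to Tbx5 (0.97). Foxf1 was closest to Tmem204 (0.98) and Tbx3 (0.97), Tbx2 to Tbx3os1 (0.93), Foxc1 to Hey2 (0.93), Foxc2 to Sfrp2 (0.92) and Foxo1 to Dusp26 (0.97) and Cyp26b1 (0.95). Foxp1 had Smco4 (0.92) and Foxp2 had Dzip1l (0.97) first.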

How the data were processed

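Lung cells of 6 droplet libraries (10x Genomics, 3′ tags) were analysed. The authors aligned reads to mm10 with Cell Ranger and deposited UMI counts per gene and called cell, not normalized. Per the file headers, version 3.0.2 was used at E15.5, E18.5 and P8 and version 3.1.0 elsewhere. Expected counts of the whole lungs, deposited by the authors beside the raw ones and adjusted for free RNA with SoupX, are not whole numbers, and the adjustment lowered the totals by 18.5% (labelled null) and 40.0% (labelled control). The adjusted values were used only as an alternative, in which the gates were read on them too.

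Libraries held 63746333 to 117522172 UMIs. Cells with at least 700 genes and 0.5% to 10% mitochondrial UMIs were kept, 7448 to 12726 per library, and grouped by the marker gates given in the text. The members, gates and lists were chosen with earlier results of these data known. Named genes were the 10 members, other Tbx and Fox genes of at least 20 CPM, their listed neighbours and targets, and the 3 genes most like each member. Levels carry exact Poisson intervals and ratios exact binomial ones, at 95%, and a difference was called at 10 CPM and 2-fold with 0.5 CPM added. Such intervals cover counting error only, and with 1 library per condition no test was possible. The calling was tested on simulated data. Doublets were called with Scrublet in scanpy 1.11.5, and at E18.5 and P8, where its automatic threshold called 0%, the highest-scoring 7.63% and 6.76% were taken. Genome positions are from the GENCODE annotation of GRCm38 and promoters from RefSeq. Python 3.11.15, numpy 2.4.6, scipy 1.17.1 and pandas 2.3.3 were used.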

Additional observations from a re-analysis of the deposited data

How the results depend on the processing

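Over 13 alternative settings none of the 36 called differences of members in the main comparisons turned its direction, and 29 of the 36 kept at least 2-fold in every alternative run on them. The 7 that did not were Foxc1 in mesenchymal cells from E13.5 to E15.5, Tbx2, Foxf1 and Foxo1 between the Gja4 and Gpihbp1 gates at P8, and Tbx3, Foxp1 and Foxo1 between the Car4 and Gpihbp1 gates. Calls in the lymphatic gate and in the alveolar fibroblast, adventitial and smooth muscle gates were not among the 36. The count of 4 members apart between the Gja4 and Gpihbp1 gates was 1 with gates read on cells thinned to 2000 UMIs and 0 with every EC that passed a gate, which was chosen after seeing the data and puts many cells in both groups. With a minimum of 50 CPM, which leaves fewer genes, the count between ECs and mesenchymal cells at E15.5 was 3 instead of 7, and that between mesenchymal cells at E13.5 and E15.5 was 3 instead of 6. The minimum changes no ratio, so these counts are lower only because members under it were left out. The share of all genes called at that minimum is not given here. With SoupX-adjusted values, on which the gates were read too, the count between ECs labelled null and control was 1 (Tbx5) instead of 0. Of all genes 6.27% were called, and the log2 ratio of Tbx2 was 0.96 instead of -0.08 and that of Foxf1 -0.09 instead of 0.16. The cause was not tested. The counts of members called at P8 over E15.5 in ECs and of members highest in whole-lung mesenchymal cells stayed within 1.5 times of the values reported in every alternative run on them. Leaving out the barcodes found in both whole lungs was also chosen after seeing the data. No paired analysis was possible because each group has 1 library and the result comes from no test, and for the same reason no replicate could be left out. Levels of Tbx4, Tbx5 and Foxp2 in ECs rest on few UMIs. Depth limits them at E13.5, where ECs held 1182673 UMIs, against 58266139 to 85977043 at the later sorted ages. Depth also limits the mesenchymal values at P8, which come from 68 cells.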

Other observations

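ECs without any of the Gja4, Gpihbp1 and Car4 gates numbered 821 (E18.5) and 364 (P8). Tbx2 was at 162 and 67.7 CPM in them, Tbx3 at 254 and 239, Foxf1 at 409 and 711 and Foxp1 at 355 and 622, and the median depth of the E18.5 cells was 4087 UMIs against 5422.5 in the Gja4 gate. In the 36 cells of the lung labelled null and the 11 of the lung labelled control that passed only the Car4 gate, Tbx2 was at 611 and 793 CPM, Tbx3 at 530 and 877 and Foxf1 at 770 and 751.

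Foxs1, a forkhead gene, was at 84.9 CPM in the sorted E18.5 mesenchyme. It was at 18.5 and 11.3 CPM in that of the unsorted lungs labelled null and control. Foxj1, the ciliated cell factor, was at 117 CPM in epithelial cells of the lung labelled null. Foxn2 was at 51.5 CPM in immune cells of the lung labelled control.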
